A study of Homo sapiens with 24 samples.

Results

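Departure from additivity was compared between HCC1954 and JIMT1 cells, using all 24 of the 24 arrays of the series. HCC1954 and JIMT1 are established human breast cancer lines. Both carry PIK3CA mutations and were chosen for their insensitivity to BYL719, an inhibitor of the α isoform of PI3K. Cells of each line received DMSO, BYL719 at 1 μM, GSK2334470 at 1 μM, an inhibitor of the kinase PDK1, or both agents at those doses, and RNA was taken after 4 hr. Each of the 8 groups held 3 arrays, so each line contributed 12. For every gene, the 2 single-agent effects against DMSO were added on the log2 scale and subtracted from the effect of the combination, which equals the combination minus BYL719 minus GSK2334470 plus DMSO. A departure of 0 means that the fold changes of the single agents multiplied. A departure above 0 means that the combination array signal lay above the level expected from the sum, whether the gene was raised or lowered by the agents. The line difference is the departure in HCC1954 minus that in JIMT1. Against DMSO, BYL719 changed 3.86% of the genes tested in HCC1954 and 11.4% in JIMT1 at an adjusted p of 0.05, GSK2334470 0.00826% and 1.28%, and the combination 15.3% and 21.3%. The question the line difference addresses is whether adding PDK1 inhibition to PI3Kα inhibition acted on the same genes beyond the sum in both lines.

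PI3K produces the membrane lipid that recruits AKT and PDK1, and PDK1 phosphorylates AKT, SGK and other kinases of the AGC family in their activation loops. AKT and SGK phosphorylate FOXO transcription factors and keep them out of the nucleus. When these kinases are inhibited, FOXO factors enter the nucleus and activate genes for cell-cycle arrest, receptor signaling, autophagy and protein degradation. Readouts of 2 inhibitors placed at different steps of this route can add up, exceed the sum or fall short of it, gene by gene.

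The arrays gave median intensities of 48.5 to 81.9, and 41.0% to 45.2% of probes were detected on each array (detection p under 0.05). The correlation of an array with each other array of its group, averaged per array, was 0.991 to 0.994 across genes. HCC1954 had 12 of 13 measured luminal epithelial markers detected on all of its 12 arrays, and JIMT1 had 10 of 13. Of 9 basal epithelial and mesenchymal markers, 6 were detected on all 12 arrays in each line. All 6 HER2 amplicon genes were detected in both lines. Of 15 markers of blood, endothelial and fibroblast cells, 4 were detected throughout in each line. The HCC1954 DMSO replicate 2 and HCC1954 GSK2334470 replicate 2 arrays had the lowest quality weights of the 24. Nothing in the labels states that replicates came from separate cultures, so the p-values measure the spread between these arrays, which may be technical. With 3 arrays per group, a line difference combines 8 group means, and the median 95% confidence interval of a gene spanned 0.54 log2 units on either side of its value.

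No gene passed an adjusted p of 0.05 (Benjamini-Hochberg, limma) in the line difference, that is 0 of 12109 genes tested or 0%. The smallest adjusted p was 0.070. At an unadjusted p under 0.05 there were 1082 genes, or 8.94% of those tested, of which 374 (3.09% of those tested) lay above 0 and 708 (5.85%) below. The methods' t-test on the same values also called 0 genes after adjustment. The median line difference of all genes was -0.05, and 43.7% of genes lay above 0. Data were simulated from these arrays with 12109 genes, and a line difference was planted in 50 genes for each fold size. The same test recovered 8% of line differences of 1.5-fold, 46% of those of 2-fold and 90% of those of 4-fold. Where fewer genes truly differ, the adjusted threshold is stricter, so recovery in the measured data may be lower. A difference of about 2-fold between the lines could therefore go uncalled in this design. Across genes the departures in HCC1954 and JIMT1 had a Pearson r of -0.03 and a Spearman rho of -0.04 (n = 12109 genes, which are not independent replicates). The 2 departures share no array. The median absolute departure was 0.140 in HCC1954 and 0.145 in JIMT1, below the median SE of 0.184 in each line. Noise of that size pulls r toward 0, so these correlations cannot show whether the lines share departures.

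**Figure D1:**
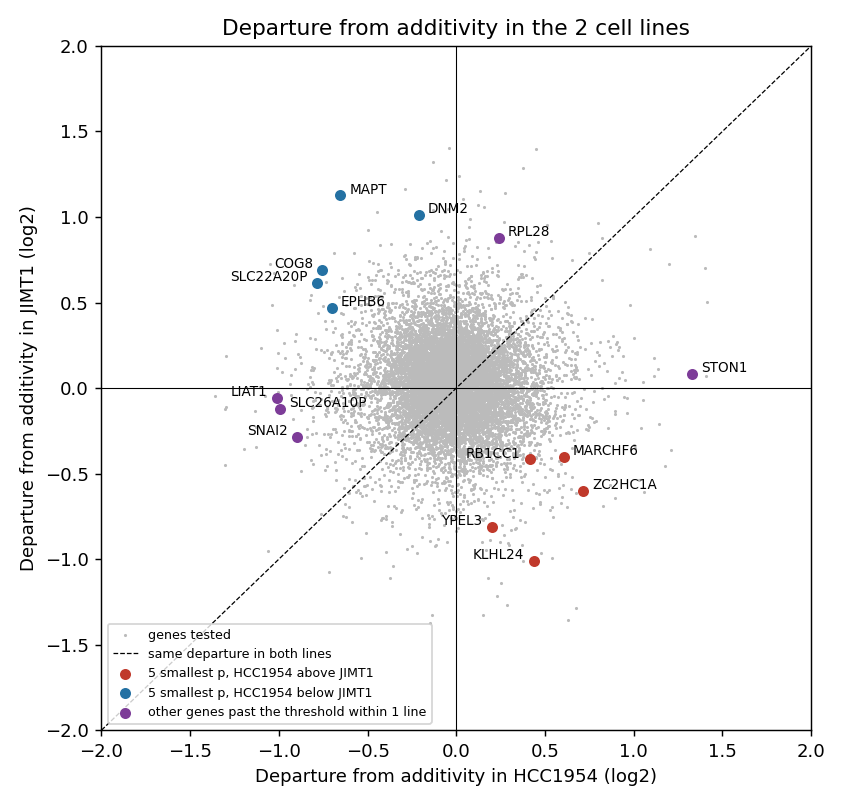
Departure from additivity (log2) in HCC1954 on the x axis and in JIMT1 on the y axis, 1 point per gene tested (12109 genes). Red and blue points are the 5 genes with the smallest p above and below 0 in the line difference. They run from KLHL24 (0.44 and -1.01) to MAPT (-0.65 and 1.13). By this choice they lie on opposite sides of the dashed line of equal departure.

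At a looser adjusted p of 0.1 there were 12 genes, or 0.0991% of those tested. KLHL24, MARCHF6, YPEL3, ZC2HC1A and RB1CC1 lay above 0, and EPHB6, COG8, DNM2, SLC22A20P, MAPT, EDN2 and SFN below. These genes are given here as values, since none passed the threshold of 0.05. In each of the 12 the departure had opposite signs in the 2 lines. Choosing genes by the difference between the 2 departures favors opposite signs, so this follows in part from the choice. The sign of the line difference was the same for all 12 when the departure was computed from linear intensities in place of log2 values. Among the 83 genes named by the rule it turned for 5, which were SGK1, SNAI2, TMEM140, GABARAPL1 and HES2. The JIMT1 departure itself turned from below to above 0 for CCNG2, IRS2, HBP1, FBXO32, CDKN2B and GABARAPL1. The same held for ARID5B, CREBRF, TMEM140, GRB7 and TIGAR. For these genes a JIMT1 effect short of the sum thus depended on the log2 scale. Other named genes below 0 in JIMT1 stayed there, among them KLHL24, YPEL3, ERBB3, FOXO4 and KLHDC2.

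KLHL24, an adaptor of a cullin ubiquitin ligase, led the line difference. Its log2 intensities in HCC1954 were 9.33, 9.54 and 9.14 with DMSO, 10.57, 10.70 and 10.47 with BYL719, 9.96, 9.64 and 9.72 with GSK2334470 and 11.55, 11.51 and 11.29 with the combination. In JIMT1 they were 8.42, 8.41 and 8.19, then 10.45, 10.63 and 10.38, then 9.89, 9.59 and 9.68, and 10.91, 11.03 and 10.65 in the same order. Each treated array lay above every DMSO array of its line. The combination raised KLHL24 by 2.11 in HCC1954 and by 2.52 in JIMT1 (adjusted p = 8.67e-10 and 1.34e-11, limma). BYL719 and GSK2334470 alone raised it by 2.15 and 1.38 in JIMT1 (adjusted p = 4.96e-10 and 2.92e-06), so that the sum of 3.53 exceeded the effect measured with both. All 3 combination arrays of JIMT1 lay below the expected level of 11.87, whereas all 3 of HCC1954 lay above the expected 11.02. In HCC1954 the departure was 0.44 and did not pass the threshold (adjusted p = 0.53). In JIMT1 it was -1.01 (adjusted p = 0.048), and KLHL24 was 1 of the 4 genes called there. The line difference was 1.44 (SE 0.25, 95% CI 0.92 to 1.97, adjusted p = 0.070). The adjusted p of KLHL24 was 0.048 among genes detected on all 24 arrays and 0.015 with an intensity trend in the prior variance.

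YPEL3, a small protein that restrains cell growth, followed the same order. Its levels in HCC1954 were 7.88, 7.87 and 7.99 with DMSO, 8.92, 8.69 and 8.87 with BYL719, 8.44, 7.98 and 8.26 with GSK2334470 and 9.37, 9.37 and 9.28 with both. In JIMT1 they were 6.91, 6.83 and 6.99, then 8.96, 8.87 and 8.94, then 7.90, 7.99 and 8.06, and 9.16, 9.11 and 9.28. The combination arrays of JIMT1 all lay below the expected 9.99 and those of HCC1954 all lay above the expected 9.14. YPEL3 departed by 0.20 in HCC1954 and by -0.81 in JIMT1 (adjusted p = 0.035), and the line difference was 1.01 (SE 0.19, adjusted p = 0.070).

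The other 3 leading genes above 0 split differently between the parts of the contrast. MARCHF6, a ubiquitin ligase of the endoplasmic reticulum membrane, measured 9.41, 9.05 and 9.0 with DMSO and 9.45, 9.38 and 9.47 with the combination in HCC1954, against 11.17, 11.08 and 11.18 and 11.16, 11.15 and 10.98 in JIMT1. Its DMSO and combination arrays overlapped in both lines, and the departures of 0.61 and -0.40 came with single-agent effects between -0.22 and 0.23, none past the threshold. With the combination MARCHF6 rose by 0.28 in HCC1954 (adjusted p = 0.048). RB1CC1, the scaffold of the ULK1 complex that starts autophagy, rose by 0.55 with the combination in HCC1954 and by 0.95 in JIMT1 (adjusted p = 0.00011 and 9.33e-08). In JIMT1 BYL719 alone gave 0.84 and GSK2334470 alone 0.52, and the 3 combination arrays of 11.07, 11.02 and 11.20 lay below the expected 11.51. ZC2HC1A had departures of 0.72 in HCC1954, where its combination arrays of 10.59, 10.55 and 10.65 were above all 9 other arrays, and of -0.60 in JIMT1, where they stood at 8.22, 8.15 and 8.22 among those of the single agents. The line differences were 1.01 (SE 0.19) for MARCHF6, 0.83 (SE 0.17) for RB1CC1 and 1.32 (SE 0.26) for ZC2HC1A, with adjusted p of 0.070, 0.088 and 0.072. A second probe of MARCHF6 gave 0.39 and a second probe of ZC2HC1A gave 0.55.

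Among the genes below 0, DNM2 and EPHB6 were detected on all 24 arrays. DNM2, the dynamin GTPase that pinches off membrane vesicles, measured 8.20, 8.03 and 8.12 with DMSO in JIMT1, 8.05, 7.66 and 7.81 with BYL719, 7.61, 7.26 and 7.56 with GSK2334470 and 8.05, 8.38 and 8.22 with both. GSK2334470 alone lowered it by 0.64 in JIMT1 (log2 effect -0.64, adjusted p = 0.0056), whereas the combination arrays overlapped those with DMSO. The departure was 1.01 in JIMT1 (adjusted p = 0.029) and -0.21 in HCC1954, and the line difference was -1.23 (SE 0.23, adjusted p = 0.070). A second, dimmer probe of DNM2 gave a departure of 0.24 in JIMT1 and a line difference of -0.06, so the value belongs to 1 probe. EPHB6, an ephrin receptor without kinase activity, measured 5.77, 5.84 and 5.81 with DMSO in HCC1954, 6.25, 6.35 and 6.10 with BYL719, 6.27, 6.16 and 5.88 with GSK2334470 and 5.87, 5.91 and 5.70 with both. In JIMT1 its levels were 8.72, 8.79 and 8.81, then 8.47, 8.36 and 8.66, then 8.89, 8.62 and 8.92, and 8.91, 9.10 and 9.01. The combination arrays of HCC1954 thus lay with the DMSO arrays, while those of JIMT1 were above them. EPHB6 departed by -0.70 and 0.47, with a line difference of -1.17 (SE 0.21, adjusted p = 0.070).

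Of the remaining leading genes below 0, COG8, SLC22A20P and MAPT were close to the detection limit or were detected on a few arrays only. COG8, a subunit of a Golgi tethering complex, had a line difference of -1.45 (SE 0.27, adjusted p = 0.070) and was detected on 19 of 24 arrays, at levels of 5.04 to 6.23. SLC22A20P, a pseudogene of the organic anion transporter family, was detected on all 3 HCC1954 BYL719 arrays (5.73, 5.36 and 5.45) and on 2 of 3 JIMT1 DMSO arrays, and on no other array. MAPT, which encodes the microtubule-binding protein tau, was detected on all 3 JIMT1 combination arrays (5.54, 5.55 and 5.48) and on 3 HCC1954 arrays with a single agent. Their line differences of -1.40 (SE 0.27) and -1.78 (SE 0.35) therefore set detected levels against levels not above background. Both passed the detection filter only through groups that are subtracted in the line difference, which favored values below 0. EDN2, which encodes endothelin-2, had a line difference of -1.52 (SE 0.30, adjusted p = 0.072) and was detected on 14 of 24 arrays, at levels of 4.73 to 9.03. SFN, which encodes 14-3-3σ, was detected on all 24 arrays at 11.20 to 12.05 and had a line difference of -0.71 (SE 0.14, adjusted p = 0.077).

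**Figure D2:**
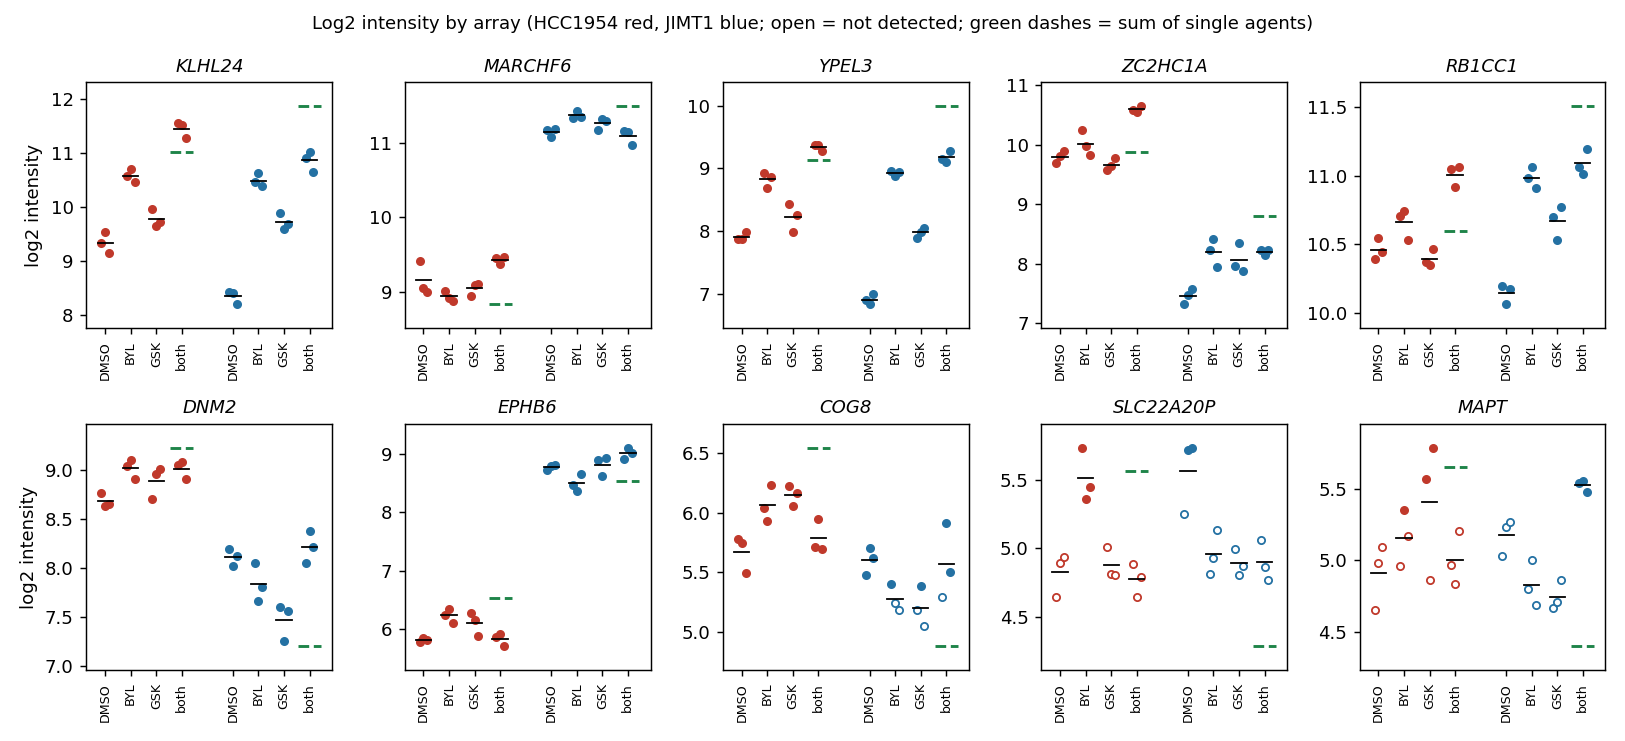
Log2 intensity of the 5 genes with the smallest p above 0 (top row) and below 0 (bottom row) in the line difference, 1 point per array (3 per group), with HCC1954 in red and JIMT1 in blue, filled where detected, black bars for group means and green dashes for the combination level expected from the sum of the single agents. In the top row all 3 HCC1954 combination arrays lie above the dashes and all 3 JIMT1 ones below them, for KLHL24 at 11.02 and 11.87, and the bottom row shows the reverse order.

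The promoters of KLHL24, YPEL3 and DNM2 are shown because these genes passed the threshold in JIMT1 and led the line difference. They were chosen after their values were seen. Each runs from 250 bases before to 50 bases after the annotated start (RefSeq, GRCh38.p14), 5′ to 3′ on the strand of the gene, and capitals mark the FOXO core motif GTAAACA or its reverse complement TGTTTAC, which do not overlap each other here.
KLHL24, chr3:183635373-183635672, plus strand: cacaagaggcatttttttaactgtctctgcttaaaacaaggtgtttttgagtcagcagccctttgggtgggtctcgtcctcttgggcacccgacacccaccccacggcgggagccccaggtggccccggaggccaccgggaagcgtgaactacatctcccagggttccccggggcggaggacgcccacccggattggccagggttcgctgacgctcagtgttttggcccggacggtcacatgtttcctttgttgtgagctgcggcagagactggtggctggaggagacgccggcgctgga
YPEL3, chr16:30096164-30096463, minus strand: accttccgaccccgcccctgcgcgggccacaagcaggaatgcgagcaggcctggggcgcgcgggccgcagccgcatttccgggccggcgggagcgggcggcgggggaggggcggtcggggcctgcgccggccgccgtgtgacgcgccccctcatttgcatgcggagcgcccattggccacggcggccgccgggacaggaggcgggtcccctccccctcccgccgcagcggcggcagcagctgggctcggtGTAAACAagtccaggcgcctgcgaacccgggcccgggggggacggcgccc
DNM2, chr19:10717829-10718128, plus strand: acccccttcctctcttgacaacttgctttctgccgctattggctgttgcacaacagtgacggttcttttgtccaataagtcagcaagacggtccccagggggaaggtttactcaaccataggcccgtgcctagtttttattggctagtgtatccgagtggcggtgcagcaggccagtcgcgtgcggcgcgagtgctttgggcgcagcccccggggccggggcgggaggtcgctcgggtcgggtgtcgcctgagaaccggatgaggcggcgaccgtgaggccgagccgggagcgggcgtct
The motif was found 1 time, in the YPEL3 window, where its first base is the annotated start, and 0 times in the other 2 windows. Of the 12109 genes tested, 9716 were in the promoter table and 3.62% of these held the motif. Of the 47 measured genes of the FOXO list described below, 42 were in the table and 10 of them (23.8%) held it: BCL2L11, BTG1, DEPP1, FOXO4, GRAMD1C, HBP1, MXI1, PIK3IP1, TXNIP and YPEL3. A match describes the letters of the window and does not show binding.

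Within HCC1954 alone, 4 genes departed from additivity at an adjusted p of 0.05, or 0.033% of those tested, 1 above 0 and 3 below. At an unadjusted p under 0.05 there were 959 (7.92%). STON1, an endocytic adaptor, departed by 1.33 (adjusted p = 0.044). It measured 6.19, 6.70 and 6.07 with the combination, while only 2 of the other 9 HCC1954 arrays detected it and no JIMT1 array did. SNAI2, the transcriptional repressor Slug, departed by -0.90 (adjusted p = 0.046). Its levels were 9.54, 9.76 and 9.29 with DMSO, 9.18, 9.16 and 9.14 with BYL719, 9.76, 9.81 and 9.98 with GSK2334470 and 8.51, 8.53 and 8.71 with the combination, which lay below all other arrays of the line. A second SNAI2 probe gave -0.60 in HCC1954. LIAT1 departed by -1.01 (adjusted p = 0.044), and a second LIAT1 probe gave -0.23. SLC26A10P, a pseudogene detected on the 3 HCC1954 BYL719 arrays alone, departed by -0.99 (adjusted p = 0.0036). It passed the detection filter only through that group, which is subtracted in the departure. STON1 passed only through the HCC1954 combination group, which is added. The filter thus favored the sign of both departures, and their p-values do not account for it. In JIMT1 the same genes departed by 0.08 (STON1), -0.28 (SNAI2), -0.06 (LIAT1) and -0.12 (SLC26A10P). The difference between the lines did not pass the threshold for any of them (adjusted p = 0.19, 0.44, 0.20 and 0.11). None of the HCC1954 calls held under median scaling of the arrays or without background correction, each of which called 0 genes, and 15 genes were called without HCC1954 DMSO replicate 2.

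JIMT1 alone also gave 4 called genes (0.033%), 2 above 0 and 2 below, with 996 (8.23%) at an unadjusted p under 0.05. Besides DNM2, YPEL3 and KLHL24, this was RPL28, a protein of the large ribosomal subunit. RPL28 measured 8.31, 8.34 and 8.41 with DMSO in JIMT1, 7.97, 7.80 and 8.03 with BYL719, 7.85, 7.92 and 7.98 with GSK2334470 and 8.38, 8.31 and 8.45 with the combination. Both agents alone lowered it there (log2 effects of -0.42 and -0.43, adjusted p = 0.00086 and 0.0045), and the combination arrays overlapped those with DMSO. The departure was 0.88 in JIMT1 (adjusted p = 0.0010) and 0.24 in HCC1954, and the line difference of -0.64 did not pass (adjusted p = 0.19). RPL28 was 1 of 62 measured ribosomal protein genes, whose median departure in JIMT1 was -0.05. Its probe was dim for this list, with a mean level of 7.80 over all arrays. The list averaged 13.57, 13.55 and 13.55 on the JIMT1 DMSO arrays. No other RPL28 probe passed the filter, so the value rests on 1 dim probe. Median scaling over all probes called 0 genes in JIMT1, and median scaling over the probes detected on every array called the same 4.

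Averaged over both lines, 2 genes passed the threshold (0.0165%), with 868 (7.17%) at an unadjusted p under 0.05. RPL28 averaged 0.56 (adjusted p = 0.0049) and SLC26A10P -0.56 (adjusted p = 0.046). The SLC26A10P value rests on a probe that passed the detection filter only through the HCC1954 BYL719 group, which favored its sign. DEPP1, a FOXO-induced regulator of autophagy, lay next above 0 without passing (adjusted p = 0.069). Its departures were 1.09 in HCC1954 and 0.81 in JIMT1, and its combination arrays of 9.57, 9.69 and 9.58 in HCC1954 and 6.84, 6.84 and 6.66 in JIMT1 were above all other arrays of their line. PIM1, a survival kinase, departed by 0.57 and 0.45, and PLAU, the urokinase protease, by -0.38 and -0.69 (adjusted p of both averages 0.069). For these 3 genes the interval of the line difference included 0. The values were 0.28 (95% CI -0.44 to 1.00) for DEPP1, 0.12 (-0.27 to 0.51) for PIM1 and 0.30 (-0.11 to 0.72) for PLAU. The DEPP1 interval is wide, and the gene was detected on 22 of 24 arrays.

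Genes activated by FOXO factors lay mostly above 0 in the line difference. Of the 47 measured genes of this list, 39 (83.0%) were above 0, against 43.7% of all genes, and the median was 0.27, against -0.05. None passed the adjusted threshold. At an unadjusted p under 0.05, 12 lay above 0 and 0 below, together 25.5% of the list, against 8.94% of all genes. The list's median departure was 0.25 in HCC1954, with 41 genes (87.2%) above 0 against 44.6% of all genes, and -0.01 in JIMT1, with 23 (48.9%) above 0 against 54.1%. Median scaling of the arrays moved the median of all genes to -0.25 and that of the list to 0.06. The list lay 0.32 above all genes with the main processing and 0.30 above them with median scaling. The list was compiled with earlier results of these data known, and 17 of its genes had been named from the study or those results. The other 30 had a median of 0.20, with 23 above 0, and the 17 had a median of 0.49, with 16 above 0. Among the 39 genes of the list detected on all 24 arrays the median was 0.23.

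The mean log2 level over the FOXO list in HCC1954 was 9.19, 9.20 and 9.16 with DMSO, 9.50, 9.51 and 9.52 with BYL719, 9.27, 9.27 and 9.25 with GSK2334470 and 9.90, 9.90 and 9.87 with both. In JIMT1 it was 8.38, 8.39 and 8.39, then 9.13, 9.13 and 9.05, then 8.68, 8.64 and 8.72, and 9.41, 9.34 and 9.38. Median effects over the list against DMSO were larger for each single agent in JIMT1, at 0.64 for BYL719 and 0.17 for GSK2334470, than in HCC1954, at 0.24 and 0.11. With the combination they were 0.91 and 0.59. By role, the list's cell-cycle genes included CCNG2 (line difference 1.29) and CDKN1B, which encodes the inhibitor p27 (0.57), while CDKN1A, which encodes p21, had -0.23. Its receptor signaling genes included IRS2 (1.00) and ERBB3 (1.02). Its autophagy genes ranged from MAP1LC3B (-0.13) to ATG14 (0.36).

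**Figure D3:**
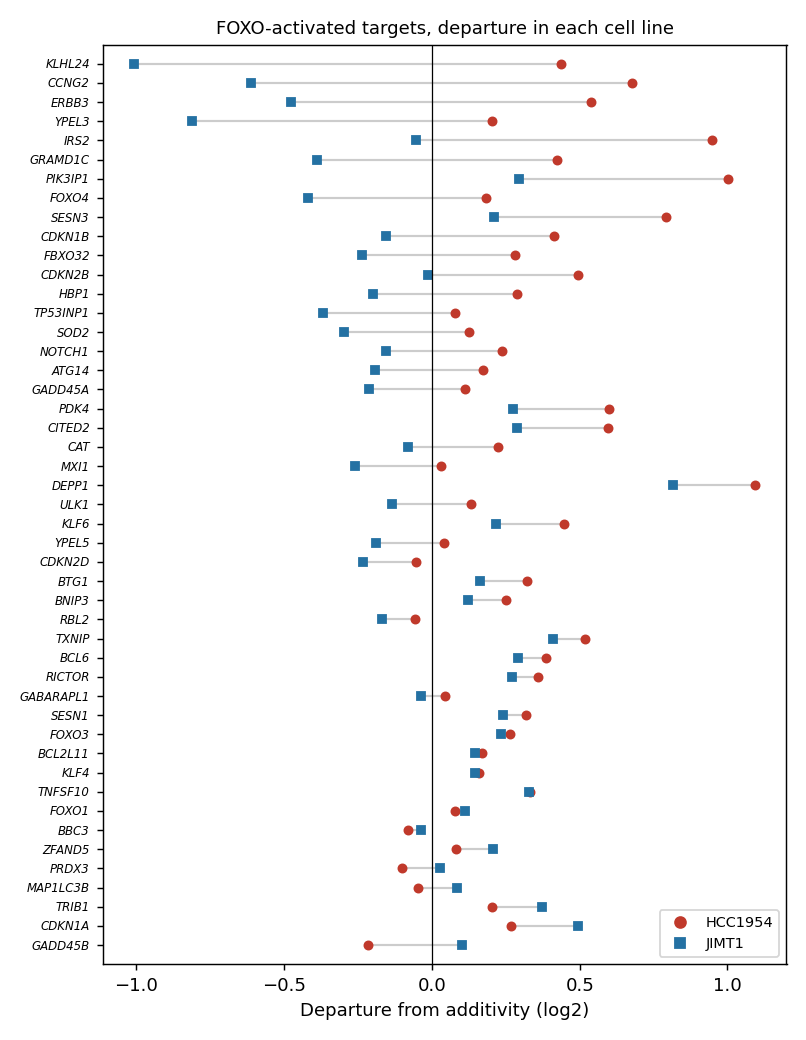
Departure from additivity (log2) of the 47 measured FOXO-activated genes in HCC1954 (red circles) and JIMT1 (blue squares), ordered by the line difference, with grey lines joining the 2 values of a gene. In 39 genes the HCC1954 value lies to the right of the JIMT1 value, by the most for KLHL24, CCNG2, ERBB3, YPEL3 and IRS2.

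CCNG2, an atypical cyclin that FOXO factors induce and that slows the cell cycle, had the second largest line difference of the list. In HCC1954 it measured 8.71, 9.04 and 8.46 with DMSO, 9.98, 9.56 and 9.94 with BYL719, 9.01, 9.02 and 9.06 with GSK2334470 and 10.94, 10.73 and 10.73 with the combination. In JIMT1 it measured 5.73, 5.10 and 5.20, then 7.99, 8.05 and 7.87, then 6.45, 6.48 and 6.87, and 8.70, 8.54 and 8.59. CCNG2 was detected on 1 of the 3 JIMT1 DMSO arrays, so that its starting level there was near background. Departures were 0.68 in HCC1954 and -0.61 in JIMT1, and the line difference of 1.29 (SE 0.32, 95% CI 0.62 to 1.95) did not pass (adjusted p = 0.19). On linear intensities the JIMT1 departure of CCNG2 was positive, so its sign there depended on the scale. The 2 other CCNG2 probes gave line differences of 0.58 and 0.18.

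IRS2, the insulin receptor substrate that couples receptors to PI3K, departed in HCC1954 more than in JIMT1. Its HCC1954 levels were 7.82, 7.76 and 7.92 with DMSO, 8.03, 8.14 and 8.42 with BYL719, 8.16, 7.95 and 7.92 with GSK2334470 and 9.26, 9.43 and 9.28 with both, where neither agent alone passed the threshold and the combination did (1.49, adjusted p = 4.43e-07). In JIMT1 BYL719 raised it by 1.00 and GSK2334470 by 0.69, and the combination by 1.63 (adjusted p = 9.17e-05, 0.017 and 8.81e-08), with arrays of 9.75, 9.75 and 10.28 around the expected 9.98. The departures of IRS2 were 0.95 and -0.05, and the line difference was 1.00 (SE 0.29, adjusted p = 0.27). ERBB3, the HER3 receptor, had departures of 0.54 and -0.48 and a line difference of 1.02 (SE 0.28, adjusted p = 0.25). Its combination arrays were 10.23, 10.91 and 10.72 in HCC1954 and 10.72, 10.68 and 10.72 in JIMT1, against expected levels of 10.08 and 11.19. Its 2 other probes disagreed, with line differences of -0.00 and 0.78.

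The other genes that the study displayed for these arrays had smaller line differences, with intervals that included 0. BCL6, a transcriptional repressor, departed by 0.38 in HCC1954 and 0.29 in JIMT1, and its line difference was 0.09 (95% CI -0.25 to 0.43). TNFSF10, the death ligand TRAIL, departed by 0.33 in both lines, with a line difference of 0.00 (95% CI -0.80 to 0.80), and was not detected on any JIMT1 DMSO array. CCND1, which encodes cyclin D1, fell with the combination in both lines (log2 effects of -0.54 and -0.64, adjusted p = 0.00032 and 4.04e-05) and had a line difference of 0.04 (95% CI -0.34 to 0.43). CDKN2B, the inhibitor p15, had 0.51 (95% CI -0.02 to 1.04), DUSP5, a phosphatase of ERK, 0.33 (-0.01 to 0.66) and GADD45A, a stress and growth-arrest protein, 0.33 (-0.02 to 0.67). A second GADD45A probe gave -0.02. Other CDKN2B probes gave 0.32 and, for a probe detected on 6 of 24 arrays, -0.15. The sign of the line difference turned with median scaling for BCL6, TNFSF10 and CCND1.

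**Figure D4:**
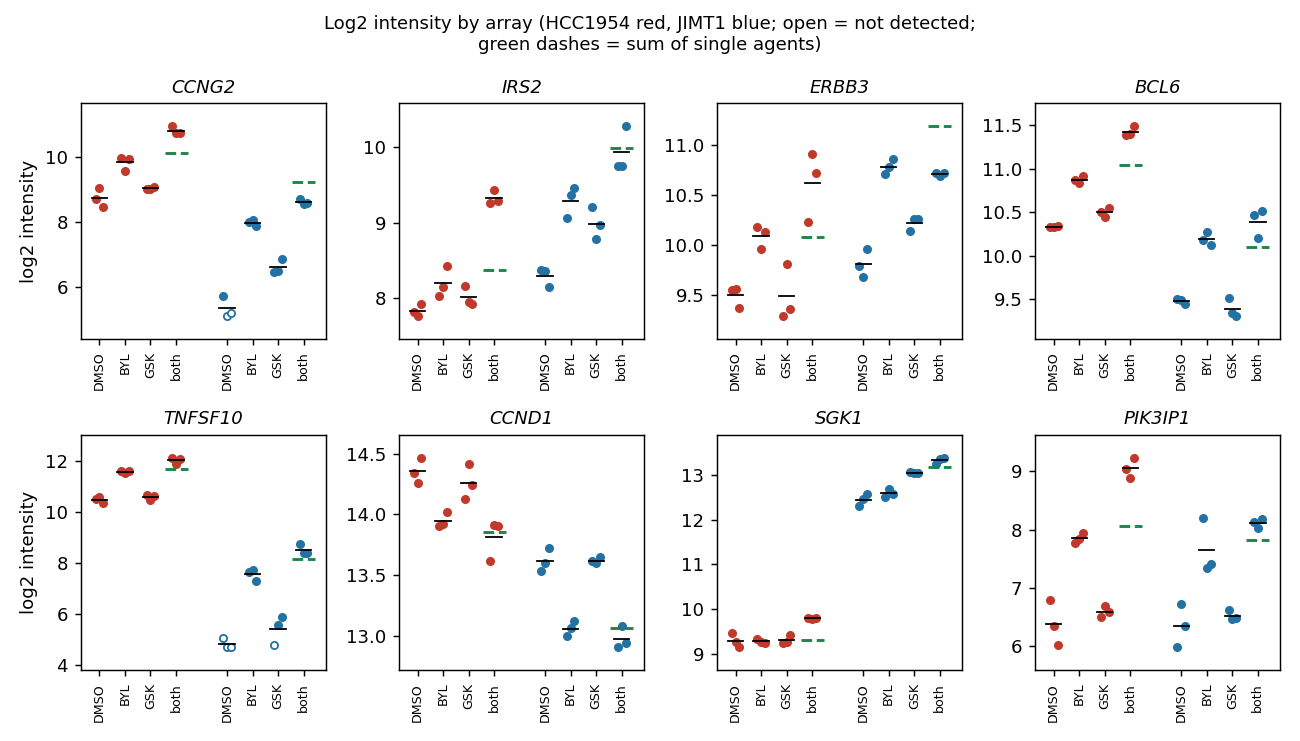
Log2 intensity by array (3 per group, HCC1954 red, JIMT1 blue, open where not detected) for 8 genes of FOXO output and the PI3K pathway, with group means as black bars and the combination level expected from the sum of the single agents as green dashes. For IRS2 the 3 HCC1954 combination arrays lie above the expected 8.38 and the JIMT1 arrays lie around the expected 9.98, whereas for CCND1 the dashes fall among the arrays of both lines.

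Genes of the pathway itself had a list median near that of all genes (-0.05). Of 37 measured PI3K, AKT, SGK and mTOR genes, 17 lay above 0, the median was -0.04, and 3 (8.11%) had an unadjusted p under 0.05, close to the share of all genes. These were TSC1 (0.68) and SESN3 (0.58), which both restrain mTORC1, and AKT1 (-0.68), for which a second probe gave -0.09. SGK1, which encodes the kinase downstream of PDK1, measured 9.47, 9.27 and 9.15 with DMSO in HCC1954, 9.34, 9.28 and 9.25 with BYL719, 9.24, 9.26 and 9.43 with GSK2334470 and 9.81, 9.78 and 9.81 with both. The combination alone raised SGK1 in HCC1954 (0.50, adjusted p = 0.00036). In JIMT1, where its DMSO arrays read 12.30, 12.46 and 12.56, GSK2334470 raised it by 0.60 and the combination by 0.89 (adjusted p = 0.00063 and 3.04e-07). The SGK1 departures were 0.50 and 0.15, with a line difference of 0.35 (95% CI -0.01 to 0.71). On linear intensities the SGK1 departures were 262 in HCC1954 and 1331 in JIMT1, so the line difference had the opposite sign. PIK3IP1, a negative regulator of PI3K, departed by 1.00 in HCC1954 and 0.29 in JIMT1, with a line difference of 0.71 (SE 0.41, adjusted p = 0.65). PDPK1, which encodes PDK1, had -0.05 (95% CI -0.46 to 0.36), and NDRG1, whose protein is an SGK1 substrate, -0.07 (-0.70 to 0.56). FOXO1 and FOXO3 had -0.04 and 0.03, and FOXO4 0.60 (95% CI 0.12 to 1.09, adjusted p = 0.46).

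The list with the largest median line difference held TXNIP, arrestin-domain proteins, and adaptors and members of the ubiquitin ligases, which mark proteins for degradation or internalization. Its 19 measured genes had a median of 0.51, 16 (84.2%) lay above 0 against 43.7% of all genes, and 7 (36.8%, against 8.94%) had an unadjusted p under 0.05, all above 0 and none past the adjusted threshold. The median departure was 0.30 in HCC1954, with 17 above 0, and -0.23 in JIMT1, with 5 above 0. After KLHL24, the leading members were ABTB1 (1.00), ITCH (0.79), KLHDC2 (0.79), FBXL20 (0.68), FBXO32 (0.52) and FBXO21 (0.51), all with adjusted p above 0.05. KLHDC2, a substrate receptor of a cullin ligase, measured 10.41, 10.46 and 10.61 with DMSO in HCC1954 and 11.40, 11.16 and 11.43 with the combination, against 9.52, 9.46 and 9.61 and 10.56, 10.56 and 10.48 in JIMT1. Its combination arrays in JIMT1 overlapped those with BYL719 alone (10.40, 10.48 and 10.55). TXNIP itself, a brake on glucose uptake, departed by 0.52 and 0.41, with a line difference of 0.11. The list shares KLHL24, FBXO32, TXNIP and ZFAND5 with the FOXO list, and its other 15 genes also had a median of 0.51, with 13 above 0. This list too was compiled with earlier results of these data known, so the 15 genes are not an independent set. Averaging the probes of each gene lowered the median of the list to 0.33, and median scaling lowered it to 0.27, or 0.52 above all genes.

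Cell-cycle inhibitors and antiproliferative genes had a median line difference of 0.21, with 18 of 23 above 0, which turned to -0.04 with median scaling, where it lay 0.21 above all genes, and fell to 0.11 without HCC1954 DMSO replicate 2. Their 3 members with an unadjusted p under 0.05 (13%, against 8.94% of all genes), CCNG2, YPEL3 and CDKN1B, also belong to the FOXO list. KLF and related regulators had a median of 0.20 (12 of 16 above 0), which turned to -0.01 with median scaling. It lay 0.25 above all genes with the main processing and 0.24 above them with median scaling, and was 0.13 without JIMT1 combination replicate 1. At an unadjusted p under 0.05, 2 of these 16 genes lay above 0 and 1 below, together 18.8% against 8.94% of all genes. KLF4, KLF6, BCL6 and CITED2 also belong to the FOXO list. Leading members above 0 were CREBRF (0.74), a regulator of CREB3, and ARID5B (0.74), a chromatin cofactor. ARID5B rose with the combination by 1.25 in HCC1954 and 2.30 in JIMT1 (adjusted p = 1.04e-08 and 7.4e-13).

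Circadian clock genes lay at the other end, with a median of -0.24 and 3 of 15 above 0. The median lay -0.19 from that of all genes, and -0.20 from it with median scaling. DBP, a clock-controlled transcription factor, had -1.02 (adjusted p = 0.33) and BMAL1, the core activator, -0.55 (adjusted p = 0.36), whereas NR1D2, which encodes the repressor REV-ERBβ, had 0.54. Ribosome biogenesis factors had a median of -0.12, with 16 of 54 above 0. Of these, 5 had an unadjusted p under 0.05, all below 0, or 9.26% against 8.94% of all genes: NOB1, BYSL, UTP14A, NCL and POLR1E. A second UTP14A probe gave 0.39. Their departures in HCC1954 were close to 0 (list median -0.03) and those in JIMT1 lay above 0 (0.11). ATF4 targets had a median of -0.16, sterol synthesis genes -0.14, glycolysis and HIF1 targets -0.13, and unfolded protein response and heat shock genes -0.12. The ATF4 median was -0.07 without HCC1954 DMSO replicate 2 and -0.10 without HCC1954 BYL719 replicate 2.

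Among NF-κB targets 6 of 17 (35.3%, against 8.94% of all genes) had an unadjusted p under 0.05, with NFKB2 (0.89), CXCL8 (0.55) and SOD2 (0.42) above 0 and RELB (-0.83), NFKBIE (-0.55) and CCL2 (-0.42) below. A second probe of NFKB2 gave -0.45. Of 30 genes of G2/M and mitosis and of 29 interferon-stimulated and class I antigen genes, 0 reached an unadjusted p of 0.05, with medians of -0.08 and -0.06. Of 31 genes of G1/S and DNA replication the median was -0.01. ERK output genes had a median of 0.06, with 4 of 28 at an unadjusted p under 0.05 (14.3%, against 8.94%), all above 0: SPRED2, EGR1, ETV5 and JUN. GDF15, a stress cytokine and p53 target, had a departure of 0.66 in HCC1954 (adjusted p = 0.051), and its line difference was 0.69 (SE 0.17, adjusted p = 0.19). GDF15 was detected on all 12 HCC1954 arrays and on 0 of the 12 JIMT1 arrays, so the line difference sets its departure in HCC1954 against levels not above background. P2RY2, a nucleotide receptor, fell with the combination in both lines (log2 effects of -2.24 and -1.34, adjusted p = 1.32e-08 and 7.16e-06), and its departures were -0.91 and 0.11. Its line difference of -1.02 (SE 0.33) did not pass (adjusted p = 0.36), and a second probe gave -0.14.

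**Figure D5:**
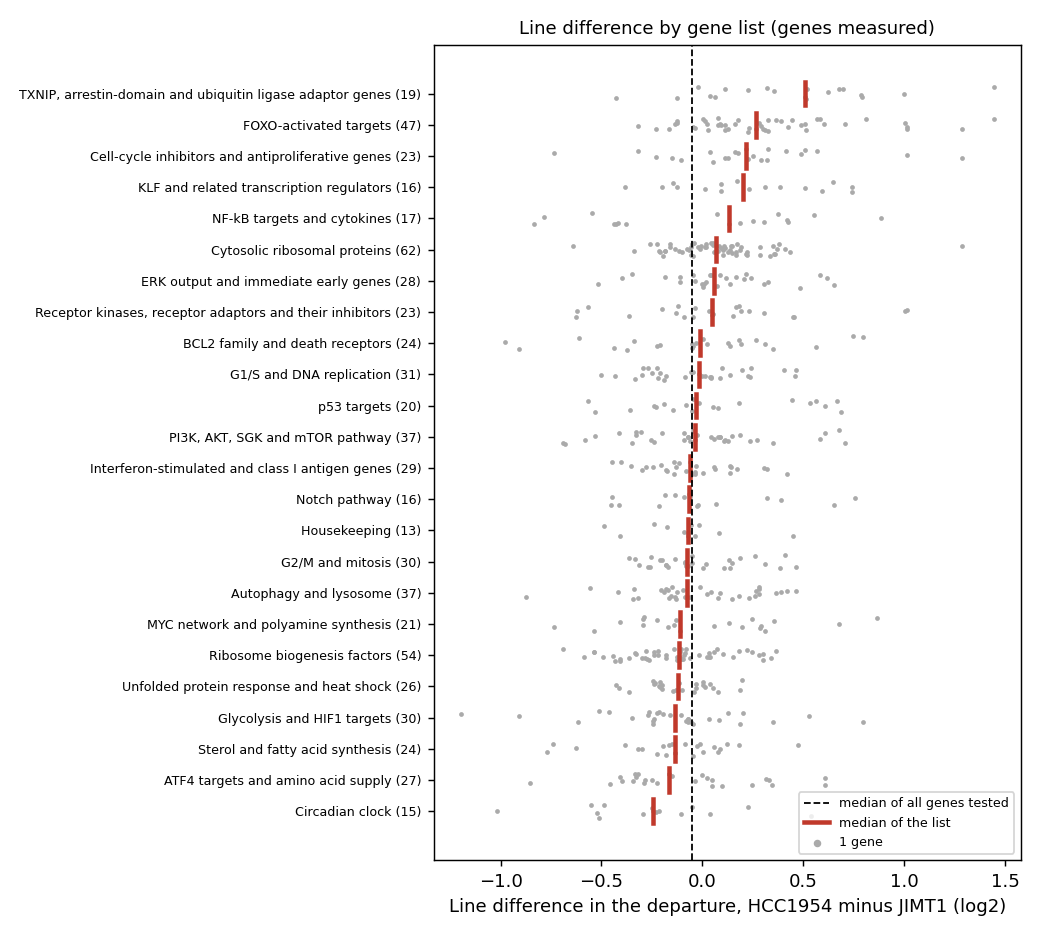
Line difference in the departure (log2, HCC1954 minus JIMT1) for the measured genes of 24 lists, 1 grey point per gene, with the list median as a red bar and the median of all genes (-0.05) as a dashed line. The list of TXNIP, arrestin-domain and ubiquitin ligase adaptor genes (0.51) and FOXO-activated genes (0.27) have the highest medians, and circadian clock genes (-0.24) the lowest.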

How the data were processed

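Total RNA of 24 samples was labelled and hybridized to Illumina HT-12 bead arrays with 47323 probes. The authors exported the deposited intensity of each probe with its detection p-value and bead count from GenomeStudio, whose version is not given in the sources used here. These scanner intensities were not normalized. A deposited detection p-value compares a probe with the negative controls. A second deposited table holds the authors' processed intensity values and served as an alternative. Intensities were background-corrected, offset by 16, quantile normalized and put on the log2 scale (neqc, limma 3.58.1, R 4.3.3). The filter retained 21256 probes that were detected (p under 0.05) in every replicate of 1 or more groups. Of the 47323 probes, 30113 had 1 gene symbol, 8 several and 17202 none. The brightest probe stood for each gene, leaving 12109 genes. Arrays carried a median of 17 to 20 beads per probe, and their number, 3 per group, limits the precision. The files used here give no slide or scan date.

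A single limma model of the 8 group means was fitted over all 24 arrays (16 residual degrees of freedom), and departures were contrasts of it, tested two-sided with Benjamini-Hochberg adjustment over all genes at 0.05. The script was tested on simulated data. Replicate numbers did not pair the arrays: deviations from group means of arrays with the same number in 1 line had a median r of -0.02, and 2 of 36 pairs exceeded 0.1.

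Genes were named by rule: up to 10 per direction past the threshold in the line difference, otherwise the 5 of smallest p; the leading genes within each line and on average; genes that the study displayed; pathway genes; genes with large combination effects; and up to 2 per list. Genes added beyond these were chosen after their values were seen. The rule for promoters named genes past the threshold in the line difference and selected none, so those shown were chosen later. The members and the 24 gene lists (610 of 705 genes measured) were chosen with earlier results of these data known. Alternatives varied background correction, offset, scaling, filter, probe choice, replicate block, array weights, test and threshold, and left out each array in turn.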

Additional observations from a re-analysis of the deposited data

How the results depend on the processing

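The line difference called 0 genes with the main processing, and also 0 without background correction, with an offset of 50, with either median scaling, with quantile normalization within each line, with the authors' processed values, with no detection filter, with the mean of the probes per gene and with the methods' t-test. It called 5 genes (KLHL24, MARCHF6, YPEL3, DNM2 and EPHB6, adjusted p = 0.048 each) among genes detected on all 24 arrays, where fewer genes were tested, 3 with array quality weights, 6 with an intensity trend, 1 without the 2 arrays of lowest weight and 12 at a threshold of 0.1. Leaving out 1 array gave 0 to 2.

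In HCC1954 the 4 calls became 0 without background correction, 0 with median scaling over all probes or over detected probes, 0 with no filter, 2 among genes detected on all arrays, 1 with the mean of the probes, 10 with weights, 1 with the methods' t-test, 1 with the trend and 12 without the 2 arrays of lowest weight. Leaving out 1 array gave 1 to 15, the highest without HCC1954 DMSO replicate 2. In JIMT1 the 4 calls became 2 without background correction, 0 with median scaling, 1 with no filter and 9 with weights, and 1 to 5 without 1 array. The 2 calls on the average became 4 without background correction, 7 with an offset of 50, 0 with median scaling, 1 with median scaling over detected probes, 1 with the authors' values, 1 with no filter, 1 among genes detected on all arrays, 8 with weights, 7 with the trend, 7 without the 2 arrays of lowest weight, and 1 to 7 without 1 array, the highest again without HCC1954 DMSO replicate 2. The cause was not tested for these counts.

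With the replicate number as a block within each line, the counts were 0 (line difference), 3 (HCC1954), 3 (JIMT1) and 1 (average), and with a replicate block shared by both lines they were 1 (KLHL24, adjusted p = 0.015), 2, 4 and 1. The samples share only a number.

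The FOXO list median of 0.27 became 0.22 with an offset of 50, 0.057 with median scaling and 0.17 to 0.29 without 1 array, the lowest without JIMT1 combination replicate 2. The ubiquitin adaptor list median of 0.51 became 0.41 without background correction, 0.40 with an offset of 50, 0.27 with median scaling, 0.33 with the mean of the probes and 0.38 to 0.55 without 1 array.

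Among the 83 named genes, the line difference changed sign mostly for genes near 0. With median scaling these were PIM1 (-0.11), BCL6 (-0.16), CCND1 (-0.10), TNFSF10 (-0.23), FOXO3 (-0.23), GABARAPL1 (-0.13) and TXNIP (-0.11), while the median of all genes moved from -0.05 to -0.25. TNFSF10 also turned with an offset of 50 (-0.17), quantile normalization within each line (-0.014), weights (-0.093), median scaling over detected probes (-0.006) and without the 2 arrays of lowest weight (-0.11). FOXO1 turned with weights (0.033) and without those 2 arrays (0.12), NDRG1 without them (0.11), FOXO3 with the mean of the probes (-0.008) and median scaling over detected probes (0.00), and SLC26A10P with no filter (0.10), where another probe was the brightest. Without 1 array the ranges crossed 0 for TNFSF10 (-0.24 to 0.32), FOXO3 (-0.085 to 0.181), PDPK1 (-0.12 to 0.03), FOXO1 (-0.12 to 0.10), NDRG1 (-0.22 to 0.05), CCND1 (-0.023 to 0.141), BCL6 (-0.003 to 0.153) and GRB7 (-0.005 to 0.280). On linear intensities the sign turned for SGK1, SNAI2, TMEM140, GABARAPL1 and HES2. The median scaling over detected probes, the fit without the 2 arrays and the subsets of the lists were chosen after seeing the data.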
